A study of Mus musculus with 9 samples.

Results

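The 10 genes described here encode A20 and the proteins around it that attach, read or remove ubiquitin chains downstream of Toll-like and tumour necrosis factor receptors: Tnfaip3, Otud7b, Cyld, Tnip1, Tnip2, Tnip3, Traf1, Traf6, Birc3 and Tank. They were taken by symbol from the 20467 genes that the deposited table names. All 10 passed the filter on low counts that left 9567 genes for testing. Their RNA was measured in RAW264.7 cells, an established mouse macrophage line, in 3 groups of 3 libraries that the submitters describe as biological replicates. All 3 groups were treated alike with lipopolysaccharide (LPS), the bacterial ligand of Toll-like receptor 4, at 100 ng/ml for 2 h. Roquin IP was RNA recovered from the lysate with rabbit polyclonal antibodies to Roquin bound to protein A/G beads. Control IP was RNA recovered with the same kind of beads and no antibody, and input was RNA of the lysate taken ahead of the immunoprecipitation. Because the control beads carried no antibody, RNA retained through Roquin cannot be told apart from RNA retained by the immunoglobulin or by other proteins it binds.

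A20, the product of Tnfaip3, edits ubiquitin chains on signalling proteins and thereby limits NF-kappaB activity, and NF-kappaB in turn induces its gene, which closes a negative feedback loop. Its binding partners of the ABIN family recognise ubiquitin chains, CYLD removes such chains, and TRAF proteins and cIAP2 build them or recruit the enzymes that do. Roquin is an RNA-binding protein that recognises short stem-loops, of which the constitutive decay element (CDE) in the Tnf mRNA is the best known, and directs the mRNA to decay.

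The stem-loop core is shown first, since it is the element by which Roquin targets are usually described. It was searched as TTCNNNGAA, on the sense strand of the mRNA, in the longest annotated 3′ untranslated region (UTR) of each gene (GENCODE M21, GRCm38; build of the authors' counts: not given in the sources used here). TTCNNNGAA occurred in 36.4% of the 9437 3′ UTRs of tested genes, and in 5.99% its 3 loop bases read pyrimidine, purine, pyrimidine, as in the known elements. None of the 10 members carried this narrower form in its 3′ UTR, and Cyld, Traf1, Traf6 and Tank carried TTCNNNGAA with another loop. In the sequences that follow, written 5′ to 3′ as DNA, capitals mark the 9-base core and lower case the 5 flanking bases on each side. The elements of Tnf, a cytokine gene, and Nfkbid, a gene of an IkappaB-like nuclear protein, are given for comparison, and the others are the matches in member 3′ UTRs.
Tnf 3′ UTR: atgttTTCTGTGAAaacgg
Nfkbid 3′ UTR, first element: gtgatTTCTGTGAAatcga
Nfkbid 3′ UTR, second element: attgtTTCTGTGAAacact
Cyld 3′ UTR: aacatTTCCCTGAAaaaat
Traf1 3′ UTR, first match: gtgctTTCAGCGAAgcacg
Traf1 3′ UTR, second match: aaggcTTCATGGAAgaagt
Traf6 3′ UTR, first match: gtttcTTCTTAGAAaaatg
Traf6 3′ UTR, second match: cccaaTTCCCAGAAtccag
Tank 3′ UTR: gttctTTCACAGAAatatt
The stem of the Tnf element (chr17:35199583-35199601, minus strand) and of both Nfkbid elements (chr7:30428400-30428418 and chr7:30428428-30428446, plus strand) continued for 3 further base pairs outside the core. The member matches continued for 0 or 1 pair: 1 in Cyld (chr8:88748061-88748079, plus strand), 0 and 1 in Traf1 (chr2:34942533-34942551 and chr2:34942353-34942371, minus strand), 0 and 1 in Traf6 (chr2:101700089-101700107 and chr2:101700786-101700804, plus strand), and 1 in Tank (chr2:61650897-61650915, plus strand). Only unbroken A-T and G-C pairs directly next to the core were counted. In the first Traf1 match the flanks could pair further if the t next to the core stayed unpaired, which this count leaves out.

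With the narrower loop, the coding sequences of Tnfaip3 and Cyld each held 1 match. The share of all coding sequences that hold such a match was not counted, so these matches cannot be called frequent or rare. They are shown because Tnfaip3 was the member with the largest difference in Roquin IP. A link between match and difference was not tested.
Tnfaip3 coding, exon 8: agagaTTCCATGAAgcaag
Cyld coding, exon 7: cctccTTCCATGAActcct
The Tnfaip3 match (chr10:19003595-19003613, minus strand) and the Cyld match (chr8:88729530-88729548, plus strand) had 0 further pairs beyond the core. A match of letters is not a binding site, and its absence from a window says nothing on binding elsewhere. The authors' deposited table lists all 10 members as holding no predicted CDE. The AU-rich heptamer TATTTAT, a motif of other decay factors, occurred in 30.9% of the 3′ UTRs, and 6 members carried it: Birc3 with 3 copies, Tnfaip3 and Cyld with 2 each, and Otud7b, Tnip3 and Traf6 with 1 each. The 3′ UTRs of these 6 members were 1525 (Birc3) to 5161 bases (Otud7b) long, beside a median of 1187 over all genes, and length was not accounted for. Tnf carried 8 copies.

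The unit of every level is CPM, a gene's reads relative to those of its library after scaling by a TMM factor (trimmed mean of M values), and 1 CPM corresponded to 2.02 to 11.7 reads. Library totals ran from 1799390 to 12975767 reads. Tnf alone took 17.6 to 27.2% of all reads in Roquin IP, while its share was 0.143 to 0.262% in control IP and 0.201 to 0.516% in input libraries. The members held 0.118 to 0.144% of all reads (Roquin IP), 0.156 to 0.198% (control IP) and 0.148 to 0.216% (input). The macrophage markers were all measured (8 of 8), and their summed level was 1350 to 2090 CPM (Roquin IP), 1110 to 1690 (control IP) and 1230 to 1760 (input). Of 8 lymphocyte markers 7 had no count in any library and the sum was at most 0.407 CPM. Fibroblast, epithelial and endothelial markers (2 of 8 at 0 throughout) summed to at most 1.26 CPM. In a lysate of a whole culture, fewer cells holding a transcript and less of it per cell cannot be told apart.

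Per kilobase of annotated transcript, which allows levels of different genes to be compared, Birc3 and Traf1 had the highest means of the members in the lysate. The length was that of the annotated transcript with the longest 3′ UTR, and the order can depend on this choice. Without scaling to length the input means had another order, at 335.9 CPM (Traf1), 302.9 (Tnfaip3) and 287.1 (Birc3). Birc3 stood at 98.7 ± 37.2 CPM per kb in the input (SD, n = 3, as for all means here) and Traf1 at 97.8 ± 16.1. Tnfaip3 (68.5 ± 9.54), Tnip1 (63.5 ± 15.0) and Tnip3 (60.4 ± 28.1) came next, and Tank followed at 35.7 ± 16.4 CPM per kb. Traf6 (7.83 ± 4.06), Otud7b (7.70 ± 2.00), Cyld (5.58 ± 1.91) and Tnip2 (4.35 ± 1.86) were lowest. Neighbours in this order overlapped in their input libraries, except Traf1 (82.1 to 114 CPM per kb) with Tnfaip3 (61.8 to 79.4) and Tank with Traf6. In Roquin IP the order changed at the top, with Tnfaip3 at 157 ± 42.1 CPM per kb, Traf1 at a mean of 114, Tnip1 at 88.7 ± 15.6 and Birc3 at 69.7 ± 19.5. The ranges of Tnfaip3 and Traf1 in Roquin IP still overlapped (122 to 204 against 92.8 to 133 CPM per kb). Tnfaip3 made up 33.2 to 42.1% of the members' reads (Roquin IP), 17.9 to 28.2% (control IP) and 16.2 to 20.8% (input).

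**Figure D1:**
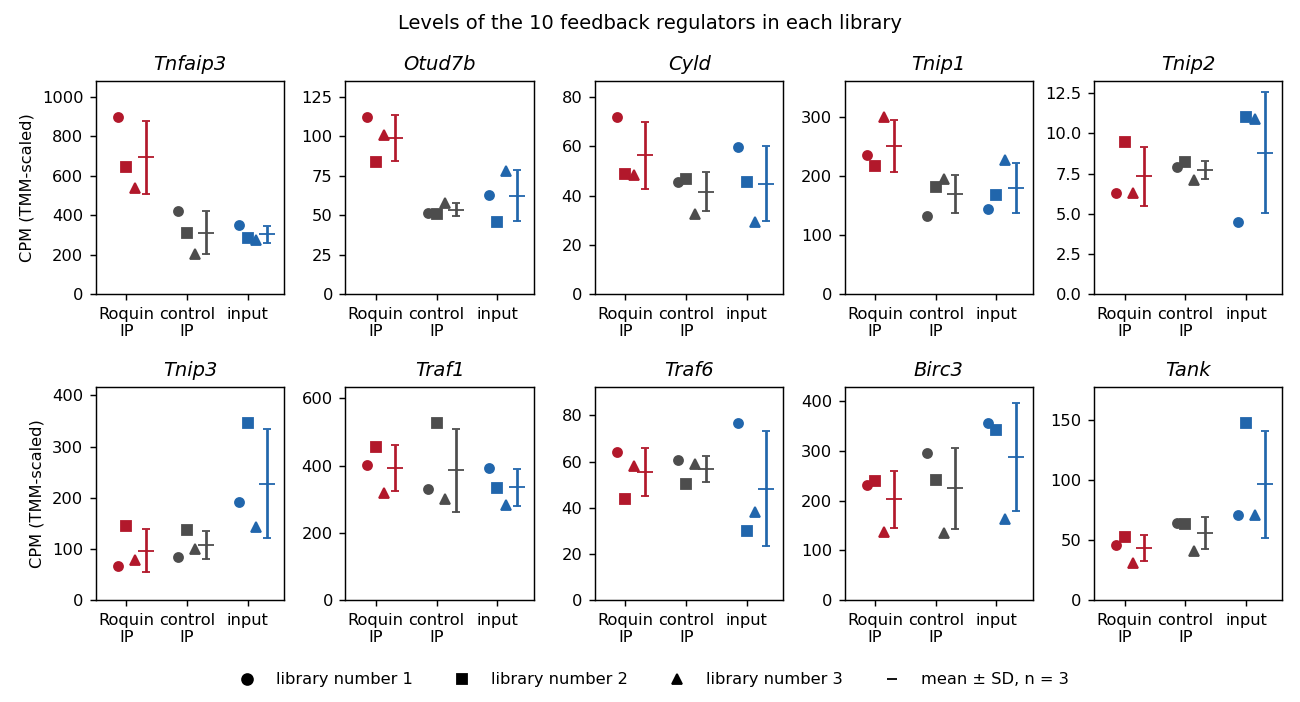
Level of each of the 10 members in CPM (vertical axis from 0, scaled separately for each gene) in 3 Roquin IP, 3 control IP and 3 input libraries, with marker shapes for the library number and bars for the mean and SD. All Roquin IP points of Tnfaip3 and Otud7b lie above all points of both other groups, while the input points of Tank lie above all of its other points.

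Roquin IP against control IP asked which of these mRNAs the antibodies recovered beyond what beads alone held. Tnfaip3 and Otud7b had the largest differences, at 2.24-fold and 1.85-fold, Tnip1 and Cyld were at 1.48-fold and 1.35-fold, and the other 6 lay near or below 1. None of the 10 members passed the adjusted threshold of 0.05 with edgeR's quasi-likelihood test over all genes, in a comparison where 3.76% of tested genes were called higher and 0% lower. At an unadjusted p under 0.05, 2 members (Tnfaip3 and Otud7b) were higher and 0 lower, against 7.93% and 2.13% of all genes. After adjustment DESeq2 and the fit with the replicate block (the library number as a term) each called these 2 higher and 0 lower. Of all genes DESeq2 called 4.43% higher and 0.0469% lower, and the blocked fit 5.52% and 0.115%. All 3 Roquin IP libraries lay above all control IP libraries for 4 of the 10 members, against 10.7% of the genes tested, and below them for 0. The median log2 fold change of the 10 was -0.01, beside -0.12 over all genes tested.

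The scale of these values depends on how libraries are set against each other. With library size alone in place of TMM factors, the all-gene median of the log2 fold change moved from -0.12 to -0.96 in Roquin IP against control IP and from -0.01 to -0.76 in Roquin IP against input. Relative to the median of all genes, Tnfaip3 stood 1.28 (log2) above it with TMM factors and 1.30 above it with library size alone over control IP, and Otud7b 1.01 under either. A change of scaling shifts all genes together, so these distances could hardly change and do not test the scaling. The log2 fold change of Tnfaip3 itself moved from 1.16 to 0.34. With Tnf and Lars2 left out of the totals and TMM factors still applied, Tnfaip3 was at 1.16 over control IP and at 1.18 over the input. The factors offset most of a change in totals, so these values could hardly move.

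Among the enzymes that remove ubiquitin, Tnfaip3, which encodes A20, was at 900.6, 644.0 and 538.9 CPM in Roquin IP 1, 2 and 3. In control IP it was at 420.5, 309.3 and 202.2 CPM, and in the input at 351.2, 284.2 and 273.3. Every Roquin IP library was above every library of the other groups, and the number 1 library was the highest within each group. The means were 694.5 ± 186.0 CPM (Roquin IP), 310.7 ± 109.1 (control IP) and 302.9 ± 42.2 (input). The log2 fold change relative to control IP was 1.16 (SE 0.316, 95% interval 0.484 to 1.84), which did not pass with edgeR (adjusted p = 0.0627). With the library number as a block it passed (log2 fold change 1.18, SE 0.193, edgeR adjusted p = 0.00125), as it did with DESeq2 (1.18, adjusted p = 0.00837) and in edgeR without the count filter (1.15, adjusted p = 0.019). Without control IP 1, the control library with the highest Tnfaip3 level, the log2 fold change was 1.44 (edgeR adjusted p = 0.0212). In the other 12 of the 16 alternatives Tnfaip3 did not pass. Its log2 fold change was 0.34 with library size alone (edgeR adjusted p = 0.353). It was 0.93 without Roquin IP 1 (edgeR adjusted p = 0.337) and 0.93 without control IP 3 (0.235). The authors' deposited table gives Tnfaip3 a linear ratio of 2.26 with p = 0.134305. Between libraries of the same number the Roquin IP level of Tnfaip3 was 2.14, 2.08 and 2.66 times that of control IP.

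Otud7b, which encodes Cezanne, a deubiquitinase of the A20 family that limits the non-canonical NF-kappaB branch, was at 112.6, 83.9 and 100.6 CPM in Roquin IP. Its control IP libraries were at 51.7, 50.7 and 58.1 CPM and its input libraries at 63.0, 45.8 and 78.2. Roquin IP again lay above all 6 other libraries, and the control IP values were close together (53.5 ± 4.02 CPM). Over control IP its log2 change was 0.89 (SE 0.274, 95% interval 0.298 to 1.47) and did not pass with edgeR (adjusted p = 0.130). With the block it was 0.88 (SE 0.207) and passed (edgeR adjusted p = 0.0215), and with DESeq2 it was 0.90 (adjusted p = 0.0319). The authors' deposited table lists a ratio of 1.88 for Otud7b with p = 1. With library size alone the log2 fold change of Otud7b was 0.05, and in 14 of the 16 alternatives it did not pass.

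Cyld encodes a deubiquitinase that cleaves lysine-63-linked and linear chains and that is a tumour suppressor. It was at 72.0, 48.7 and 48.3 CPM (Roquin IP), 45.3, 46.8 and 32.6 (control IP) and 59.8, 45.4 and 29.2 (input). Roquin IP and control IP did not overlap, although Roquin IP 3 and control IP 2 were close, and Roquin IP overlapped the input. Over control IP its log2 change was 0.44 (SE 0.320, 95% interval -0.251 to 1.12, edgeR adjusted p = 0.722), and with library size alone it was -0.39.

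The ABIN genes encode adaptors that bind A20 and ubiquitin chains, and 0 of the 3 passed over control IP. Tnip1, which encodes ABIN1, was at 235.3, 217.2 and 301.3 CPM (Roquin IP), 132.9, 182.1 and 194.9 (control IP) and 144.7, 168.2 and 227.2 (input). Its Roquin IP libraries lay above those of control IP, while Roquin IP 2 lay below Input 3. Over control IP its log2 change was 0.56 (SE 0.279, 95% interval -0.0339 to 1.16, edgeR adjusted p = 0.548), and -0.27 with library size alone. Tnip2, which encodes ABIN2, a partner of the kinase TPL2, was the least abundant member, at 6.28 to 9.46 CPM (Roquin IP), 7.12 to 8.22 (control IP) and 4.47 to 11.1 (input). Its counts were 11 to 83 per library. Its 95% interval over control IP ran from -1.05 to 0.920 on the log2 scale. This leaves out the 1.16 measured for Tnfaip3 but overlaps the interval of Tnfaip3 (0.484 to 1.84). Tnip3, which encodes ABIN3, an LPS-inducible member, overlapped between both IPs (67.8, 144.9 and 77.9 CPM in Roquin IP against 85.1, 137.7 and 101.1 in control IP; log2 fold change -0.15, edgeR adjusted p = 0.925).

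The TRAF, cIAP2 and TANK genes all overlapped between Roquin IP and control IP, and 0 of the 4 passed. Traf1, an NF-kappaB-induced adaptor without ligase activity of its own, was at 402.3, 455.3 and 318.8 CPM in Roquin IP and 329.9, 527.4 and 300.6 in control IP. Its log2 fold change was 0.02 (95% interval -0.599 to 0.645, edgeR adjusted p = 0.984), or -0.83 with library size alone. Traf6, the ubiquitin ligase downstream of Toll-like and interleukin-1 receptors, was at 64.1, 43.8 and 58.2 CPM against 60.8, 50.3 and 58.9. Its log2 fold change was -0.04 (95% interval -0.764 to 0.689). Birc3, which encodes the ubiquitin ligase cIAP2, was at 230.7, 239.9 and 137.3 CPM against 295.5, 242.0 and 135.9, with a log2 fold change of -0.15 (95% interval -0.937 to 0.642). The number 3 library of Birc3 was the lowest in each group. Tank, a TRAF-binding adaptor of the kinases TBK1 and IKK-epsilon, was at 46.0, 52.2 and 31.4 CPM against 63.8, 63.8 and 40.8. It was lower in Roquin IP for each library number, by ratios of 0.721, 0.819 and 0.770, and its log2 fold change was -0.38 (95% interval -1.12 to 0.369, edgeR adjusted p = 0.782). The intervals of these 4 genes exclude a rise as large as the 1.16 measured for Tnfaip3. Those of Traf1, Traf6 and Birc3 overlapped the interval of Tnfaip3 itself (0.484 to 1.84). Differences between members were not tested. Under library size alone the log2 fold changes of Traf1, Birc3, Tnip3 and Tank passed as lower, at -0.83, -0.98, -1.03 and -1.22 (edgeR adjusted p from 0.0219 to 0.0439), in a setting where the median of all genes was -0.96 and 38.6% of all genes were called lower.

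In the authors' deposited table the members other than Tnfaip3 all have p = 1, and their ratios run from 1.88 for Otud7b and 1.5 for Tnip1 down to 0.78 for Tank. The same table gives Cyld 1.37, Traf1 1.03, Traf6 0.99, Tnip2 0.96, Birc3 0.91 and Tnip3 0.91 in the authors' ratio.

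**Figure D2:**
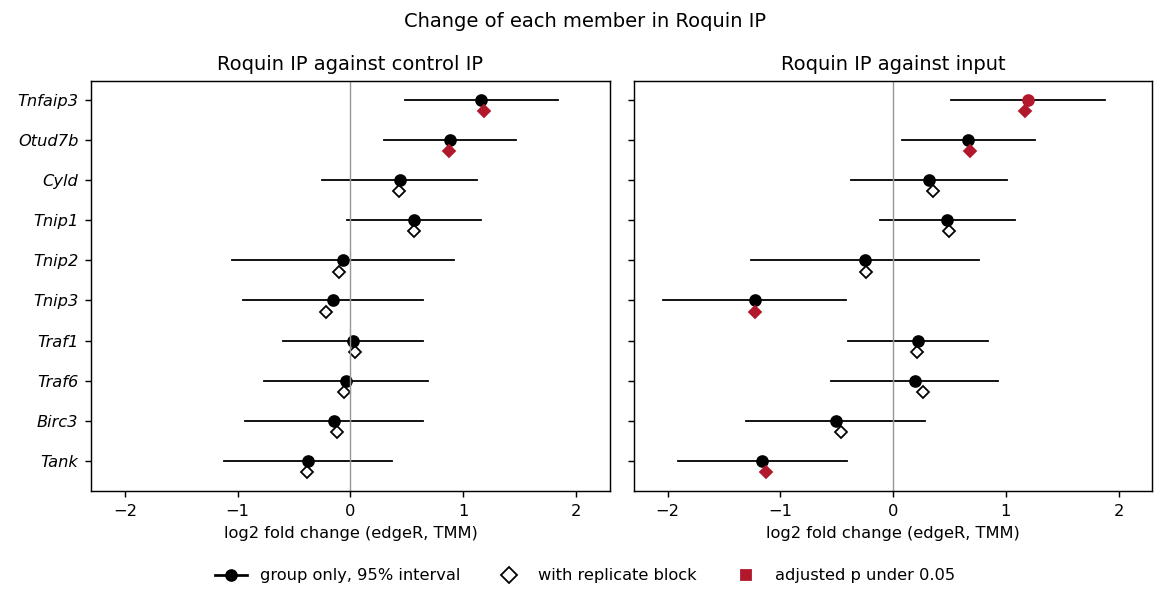
Log2 fold change of each member (horizontal axis) in Roquin IP against control IP (left) and against input (right), as circles with 95% intervals for the fit on groups alone and as diamonds for the fit with the library number as a block, with red for an adjusted p under 0.05. Over control IP only the diamonds of Tnfaip3 and Otud7b are red, and over input the diamonds of Tnfaip3, Otud7b, Tnip3 and Tank and the circle of Tnfaip3.

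Roquin IP against input compared the recovered RNA with the lysate it came from, and it shares the Roquin IP libraries with the comparison above, so its values are not independent of those. Tnfaip3 was 2.29-fold higher and passed, while Tnip3 and Tank, at 0.427 and 0.447 of their input level, were the lowest members and did not pass. Of the 10 members edgeR called 1 higher and 0 lower, where 5.45% of tested genes were called higher and 2.79% lower. At an unadjusted p under 0.05, 2 members were higher and 2 lower, against 12.1% and 10.7% of all genes. DESeq2 called 1 member up and 2 down (8.03% and 5.94% of all genes), and the blocked fit 2 and 2 (9.99% and 8.04%). Roquin IP lay above the input without overlap for Tnfaip3 and Otud7b (2 of 10, against 16.5% of tested genes) and below it for Tank (1 of 10, against 14.4%). The median log2 fold change of the members was 0.21, beside -0.01 over all genes.

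Tnfaip3 had a log2 fold change over input of 1.20 (SE 0.317, edgeR adjusted p = 0.0322). With the block it was 1.17 (adjusted p = 0.00122). The call depended on single libraries: the edgeR adjusted p was 0.155 without Roquin IP 1 (log2 fold change 0.97), 0.0654 without Roquin IP 2, 0.0619 without Input 1, 0.109 without Input 2 and 0.0984 without Input 3. With library size alone it was 0.43 (adjusted p = 0.307), which is 1.18 above the median of all genes in that setting, against 1.20 above it with TMM factors. That distance could hardly change, because the scaling shifts all genes together. By library number Tnfaip3 was 2.56, 2.27 and 1.97-fold higher in Roquin IP than in the input.

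Otud7b did not pass over the input (log2 fold change 0.67, SE 0.276, edgeR adjusted p = 0.163) and passed with the block (0.68, adjusted p = 0.0393), while library size alone gave -0.06. Its ratios by library number were 1.79, 1.83 and 1.29. Tnip1 (0.48, edgeR adjusted p = 0.330), Cyld (0.32, 0.606), Traf1 (0.22, 0.70) and Traf6 (0.19, 0.790) had small positive values that turned negative with library size alone, at -0.24, -0.44, -0.55 and -0.54. In the input libraries Traf1 was at 392.7, 332.8 and 282.2 CPM, Traf6 at 76.8, 30 and 38.1, and Birc3 at 356.5, 342.2 and 162.4. Each of these overlapped its Roquin IP libraries, and Traf6 was highest in Input 1. Birc3 was at -0.50 (edgeR adjusted p = 0.456) and passed as lower with library size alone (-1.31, adjusted p = 0.0142), where 27.8% of all genes were called lower, and Tnip2 was at -0.25 (0.804).

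Tnip3 was at 192.3, 346.6 and 143.6 CPM in the input, above the Roquin IP library of the same number in each case, while Roquin IP 2 (144.9 CPM) was just above Input 3. Its log2 fold change over input was -1.23 (SE 0.378, edgeR adjusted p = 0.0622). It passed with the block (-1.22, adjusted p = 0.0018), with DESeq2 (-1.24, adjusted p = 0.0173), and without Roquin IP 2 (-1.64, adjusted p = 0.0332), control IP 1 (adjusted p = 0.0472) or Input 3 (adjusted p = 0.0458). Tnip3 also passed without the count filter (-1.21, edgeR adjusted p = 0.00522) and with library size alone (-2.04, 0.00205). In the latter setting 27.8% of all genes were called lower. Tank was at 70.7, 147.6 and 70.8 CPM in the input, and Input 2 stood well above the other two. All 3 input libraries of Tank lay above all 6 IP libraries. Its log2 fold change over input was -1.16 (SE 0.352, edgeR adjusted p = 0.0578), and it passed with the block (-1.13, adjusted p = 0.00545), with DESeq2 (adjusted p = 0.0192) and without control IP 1 (adjusted p = 0.0448). Tank passed in 5 of the 16 alternatives, which include library size alone (-1.96). Without Input 2, the input library with the highest level of both genes, the log2 fold change was -0.79 for Tnip3 and -0.71 for Tank.

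Control IP against input measured what the beads alone held, and it shares the input libraries with the comparison of Roquin IP with input. Here edgeR called 0 members higher and 0 lower, where 0.815% of tested genes were higher and 0.303% lower. At an unadjusted p under 0.05, 0 members were higher and 2 lower (Tnip3 and Tank), against 10.8% and 9.53% of all genes. DESeq2 called 0 members in either direction (4.23% and 4.12% of all genes), and the blocked fit 0 higher and 1 lower (6.65% and 5.78%). Tnip3 and Tank lay below the input in all 3 control IP libraries (2 of 10, against 10.8% of tested genes). Tnip3 had a log2 fold change of -1.08 (SE 0.377, edgeR adjusted p = 0.134), which passed with the block (-1.01, adjusted p = 0.0118) and without the count filter (-1.05, adjusted p = 0.0368), and Tank of -0.79 (0.224). The low values of Tnip3 and Tank relative to the lysate were thus measured on beads without antibody as well: Tnip3 was at 0.443, 0.397 and 0.704 of its input level by library number in control IP, and at 0.353, 0.418 and 0.543 in Roquin IP. Tnfaip3 was at 1.20, 1.09 and 0.740 of its input level in control IP, with a log2 fold change of 0.03 (edgeR adjusted p = 0.967). The members other than Tnip3 and Tank lay between -0.36 (Birc3) and 0.23 (Traf6). The median of the 10 was -0.15, beside 0.02 over all genes.

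**Figure D3:**
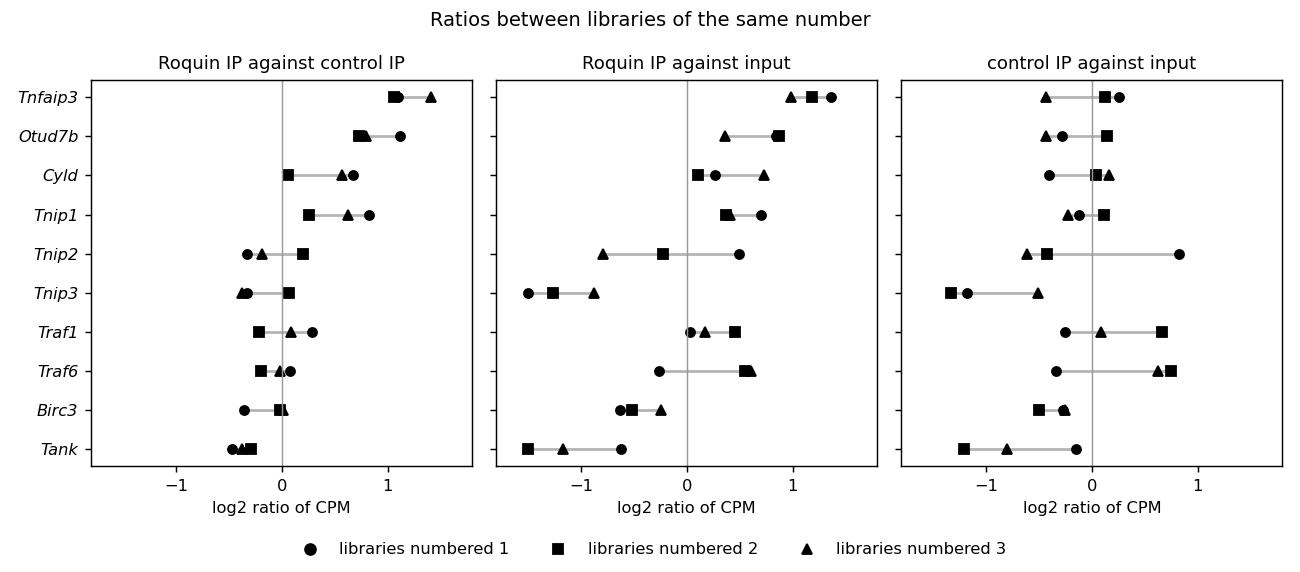
Log2 ratio of CPM (horizontal axis) between libraries of the same number for each member, in Roquin IP against control IP (left), Roquin IP against input (middle) and control IP against input (right), with 1 marker shape per library number. The 3 points of Tnfaip3 lie at ratios of 1.97 or more in both Roquin IP panels and on either side of 0 (log2) in control IP against input, while all points of Tnip3, Tank and Birc3 are below 0 in the middle and right panels.

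Other genes of the pathway were listed by function, as A20 partners, TRAF family genes, ubiquitin ligases and conjugating enzymes, other deubiquitinases, ubiquitin-guided kinases with their adaptors, and receptor-proximal adaptors. Of these 62 genes 58 were tested, and Peli2, Peli3, Otud7a and Usp11 lay under the count filter. Over control IP 2 of the 58 were higher and 0 lower (3.76% and 0% of tested genes), with a median log2 fold change of -0.10. At an unadjusted p under 0.05 the lists held 4 higher and 1 lower, against 7.93% and 2.13% of all genes. With DESeq2 2 were called up and 0 down (4.43% and 0.0469% of all genes), and with the block 3 and 0 (5.52% and 0.115%). Itch, a ubiquitin ligase that works with A20, was at 136.5, 81.1 and 118.3 CPM (Roquin IP), 23.7, 27.98 and 26.9 (control IP) and 74.0, 41.5 and 46.5 (input). Its Roquin IP libraries lay above both other groups, by a log2 fold change of 2.09 over control IP (4.26-fold, SE 0.312, edgeR adjusted p = 0.000645), and it passed under every alternative run. Usp7, a deubiquitinase with many nuclear substrates, was at 257.9, 161.3 and 250.6 CPM in Roquin IP and 98.5, 83.5 and 99.3 in control IP. Its log2 fold change of 1.25 (2.38-fold, edgeR adjusted p = 0.0177) did not pass without Roquin IP 1 (adjusted p = 0.093), Roquin IP 3 (0.0941), control IP 2 (0.118) or control IP 3 (0.0541), or with library size alone (0.44, adjusted p = 0.261). In the input Usp7 was at 126.4, 123.2 and 179.7 CPM, above all control IP libraries and overlapping Roquin IP. Its log2 fold change was 0.64 in Roquin IP against input (edgeR adjusted p = 0.186, or 0.0465 with the block) and -0.61 in control IP against input (adjusted p = 0.238). Traf3, an adaptor of the non-canonical NF-kappaB and interferon pathways, was the gene that the block added over control IP (0.95, adjusted p = 0.0396). Without the block it was 2.03-fold higher and did not pass (log2 fold change 1.02, edgeR adjusted p = 0.184).

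Over the input 3 of the 58 were higher and 2 lower (5.45% and 2.79% of tested genes), with a median of -0.03. DESeq2 called 4 up and 4 down among the 56 to which it gave an adjusted p (8.03% and 5.94% of all genes). The fit with the block called 5 and 4 (9.99% and 8.04%). Traf3 had a log2 fold change of 1.46 (edgeR adjusted p = 0.0197), Spata2, which tethers CYLD to the linear ubiquitin ligase complex, of 1.14 (0.0361), and Itch of 1.05 (0.0487). Ikbke, which encodes the TANK-bound kinase IKK-epsilon, was lower, with a log2 fold change of -1.58 (0.00454), and so was Tax1bp1, an adaptor of A20, with -1.39 (0.0480). The same genes were compared between beads without antibody and the input. Spata2 had a log2 fold change of 1.08 in control IP against input (edgeR adjusted p = 0.0801, or 0.0156 with the block), with all 3 control IP libraries above all input libraries, and of 0.05 in Roquin IP against control IP (adjusted p = 0.965). Tax1bp1 was at -0.99 in control IP against input (adjusted p = 0.184, or 0.0496 with the block) and at -0.40 over control IP (0.799). In control IP against input Ikbke was lower in all 3 control IP libraries than in any input library (edgeR adjusted p = 0.0858, or 0.0196 with the block), and so was Itch, the gene with higher levels in Roquin IP, at -1.04 (0.0903, or 0.0247 with the block). Ikbke was at 18.0, 24.7 and 20.6 CPM (Roquin IP), 35.6, 36.4 and 23.2 (control IP) and 69.5, 60.4 and 60.4 (input), and it passed under every alternative run. The Traf3 call ended without Roquin IP 3 (adjusted p = 0.116) or Input 2 (0.0839) and with library size alone (0.78, 0.139). The Spata2 call ended without Roquin IP 1 (adjusted p = 0.131), Roquin IP 2 (0.104), Roquin IP 3 (0.0888), control IP 2 (0.0512), Input 2 (0.105) or Input 3 (0.105). The Itch call over input ended without Roquin IP 1 (adjusted p = 0.206), Roquin IP 3 (0.154), control IP 2 (0.0705), control IP 3 (0.0553), Input 2 (0.165) or Input 3 (0.127). The Tax1bp1 call ended without Roquin IP 1 (adjusted p = 0.181), Roquin IP 2 (0.0534), Roquin IP 3 (0.177), control IP 2 (0.0657), Input 1 (0.115) or Input 2 (0.202). With library size alone, Spata2 (0.38, adjusted p = 0.398) and Itch (0.32, 0.501) did not pass over the input either. In control IP against input edgeR called 0 of the 58 in either direction, where 0.815% of tested genes were higher and 0.303% lower. The lists held 4 higher and 6 lower at an unadjusted p under 0.05, against 10.8% and 9.53% of all genes. DESeq2 called 2 higher and 3 lower (4.23% and 4.12% of all genes), and the block 3 and 4 (6.65% and 5.78%).

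**Figure D4:**
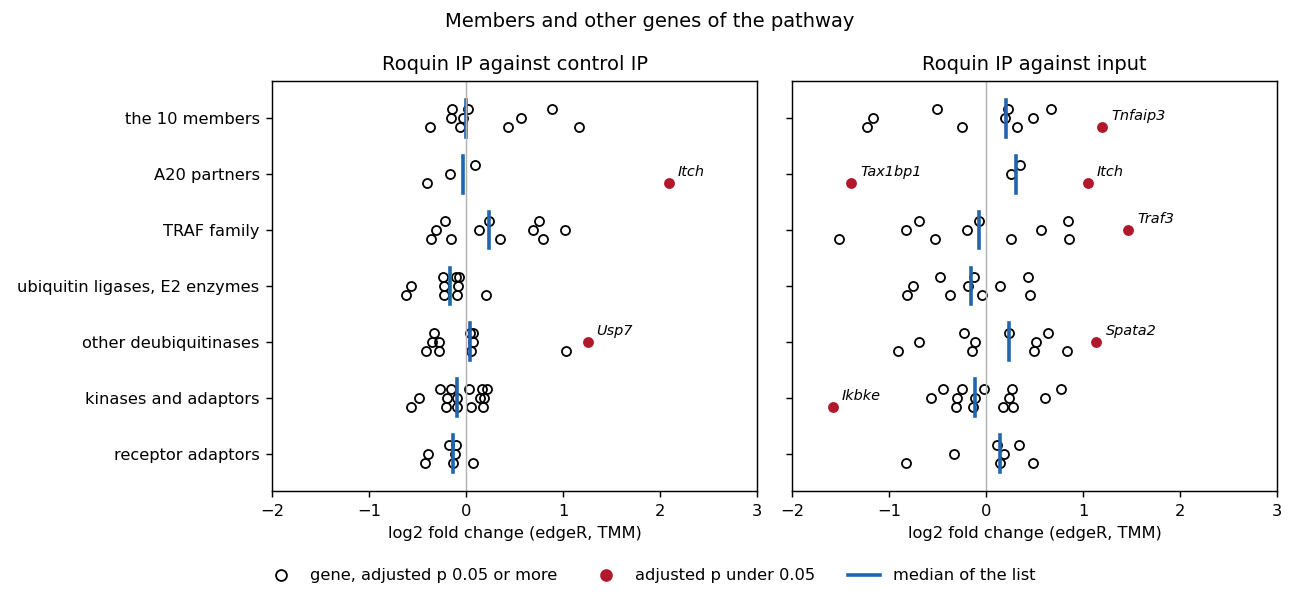
Log2 fold change (horizontal axis) of the 10 members and of the 58 other tested pathway genes by list (vertical axis, with points offset for legibility), in Roquin IP against control IP (left) and against input (right); red marks an adjusted p under 0.05 and the blue bar the list median. Itch and Usp7 are the red points on the left, and Tnfaip3, Itch, Traf3, Spata2, Tax1bp1 and Ikbke those on the right.

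The genes whose level over the 9 libraries was most like that of Tnfaip3, by Pearson's r of log2(CPM + 1), were Cflar (r = 0.980), Marf1 (0.977) and Lpin2 (0.977). These correlations describe 9 libraries in 3 groups that share their scaling. The 3 genes were picked for following a gene that is high in Roquin IP in these same libraries, so their differences between the groups were largely set by that choice and are a description. Cflar, which encodes the caspase-8 inhibitor c-FLIP, had a log2 fold change of 1.51 over control IP and 1.41 over input. Marf1, an RNA-binding regulator of oocyte meiosis, was at 1.49 and 1.76, and Lpin2, a phosphatidate phosphatase gene, at 2.42 and 2.70. Of these genes and Tnfaip3, Lpin2 held the stem-loop core with the narrower loop in its 3′ UTR, and its stem continued for 3 further pairs (chr17:71248987-71249005, plus strand).
Lpin2 3′ UTR: gttctTTCTGTGAAagaga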

How the data were processed

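RNA of 3 Roquin IP, 3 control IP and 3 input libraries was analysed from the authors' deposited table. Per the file headers the table gives the number of reads per gene, and the values were raw counts: whole numbers whose totals differ between libraries. It also holds the authors' ratio between Roquin IP and control IP (the header says log2, but the deposited values are a linear ratio), a p-value for that ratio deposited by the authors (adjusted or not: not given in the sources used here), and their CDE class as text. The tools named, per the submitters' processing notes, are BWA, CASAVA 1.8.2 and DESeq 1.8.3. Strand handling, filters on reads, annotation and build: not given in the sources used here. Hence reads shared with overlapping genes cannot be assigned with certainty. A further 7480 entries without a symbol held no values.

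After filterByExpr (minimum count 10), edgeR 4.0.16 in R 4.3.3 was run on the counts with TMM factors, 1 model for all 9 libraries, no term beside group, and the quasi-likelihood F test. Spread between libraries was a common biological coefficient of variation of 0.35 (residual degrees of freedom 6, prior 8.13). Adjusted p-values are Benjamini-Hochberg values over all 9567 genes, with a threshold of 0.05. The fit was checked on simulated data for Roquin IP against control IP; the alternatives were not. Alternatives were RLE factors, library size alone, DESeq2 1.42.0, no filter, the replicate number as a block, only the 6 libraries compared, totals without Tnf and Lars2, and leaving out each library. Members and lists were chosen with earlier results of these data known. All members, each pathway gene that passed (up to 6 per comparison) and the 3 genes closest in pattern to Tnfaip3 are named. Traf3 over control IP, and the values of passing pathway genes in the other comparisons, were added after they were seen. The symbols Fam105b, Sfpi1 and Emr1 in the table stand for Otulin, Spi1 and Adgre1.

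The labels number the replicates alike in each group. The deviations from group means correlated between libraries of the same number, with r of 0.340 to 0.612 for Roquin IP with control IP, 0.287 to 0.501 for Roquin IP with input and 0.157 to 0.351 for control IP with input, and were under 0 between different numbers. The values under 0 are no separate support, because deviations from a group mean sum to 0 within the group. A pairing by number was thus read from the data and not from the labels. The main fit holds no term for it, so its calls leave the pairing out. Values with the block are given beside them where a member's call changed. Replicate libraries were not duplicates, with a chi-square per degree of freedom of 13.9 to 117. Nothing states that replicates came from separate cultures, so p-values measure the spread between these libraries. Of the tested genes 8748 matched GENCODE M21 by symbol and 719 by a RefSeq synonym.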

Additional observations from a re-analysis of the deposited data

How the results depend on the processing

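Of 736 log2 fold changes of members and named pathway genes under alternatives, 630 kept direction and side of the threshold. With the sign kept, 34 lost and 35 gained a call, and 37 changed sign, with or without a call. Where no cause is named, the cause was not tested. The fit with the replicate block changed the calls of Tnfaip3, Otud7b, Tnip3 and Tank given in the report and no other member call. Of the pathway genes it added Traf3 over control IP and Traf7, Ube2n, Usp7 and Usp15 over input. In control IP against input it added Tax1bp1, Itch, Traf7, Fam105b, Usp15, Spata2 and Ikbke.

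In Roquin IP against control IP, members called higher numbered 2 with DESeq2, 1 without filter, 2 with the replicate block and 0 to 1 on leaving out 1 library, and members lower 4 with library size alone. Genes lower were 3694 with library size alone, 5 with DESeq2, 21 without filter, 11 with the block and 0 to 3 on leaving out 1 library. In Roquin IP against input, genes higher were 259 with library size alone, 956 with the block and 298 to 679 on leaving out 1 library. Members higher there were 0 with library size alone, 2 with the block and 0 to 1 on leaving out 1 library. Genes lower were 2659, 522 with DESeq2, 416 without filter, 769 with the block and 30 to 452, and members lower were 3, 2, 2, 2 and 0 to 2, in the same order. In control IP against input, genes higher were 383 with DESeq2, 335 without filter, 636 with the block, 2 with only the 6 libraries compared and 0 to 188 on leaving out 1. Genes lower were 10 with library size alone, 373, 229, 553, 1 and 0 to 88, and 1 member was lower without filter and 1 with the block.

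Signs changed with library size alone over control IP for Cyld (-0.39), Tnip1 (-0.27), Traf1 (-0.83) and Spata2 (-0.77), over input for Usp7 (-0.0796), Otud7b (-0.0648), Cyld (-0.44), Tnip1 (-0.24), Traf1 (-0.55) and Traf6 (-0.54), and for Tnip1 in control IP against input (0.0249). This scaling shifts all genes together. Traf6 over control IP was at 0.0202 with only the 6 libraries, and Tnfaip3 in control IP against input at -0.0165 with the block. On leaving out 1 library, the values over control IP ran from -0.30 to 0.0474 for Tnip2, -0.56 to 0.0605 for Tnip3, -0.13 to 0.32 for Traf1, -0.15 to 0.11 for Traf6, -0.41 to 0.10 for Birc3 and -0.14 to 0.20 for Spata2, and over input from -0.0608 to 0.70 for Traf6. In control IP against input they ran from -0.24 to 0.27 for Tnfaip3, -0.38 to 0.15 for Cyld, -0.21 to 0.0793 for Tnip1, -0.50 to 0.0227 for Tnip2, -0.0902 to 0.35 for Traf1 and -0.0241 to 0.74 for Traf6. Tnip2 had the fewest reads of the members, 11 to 83 per library.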
